A study of Homo sapiens with 32 samples.

Results

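Emetine, an alkaloid that stops ribosomes during the elongation step of protein synthesis, was given to HEK293T cells for 2 h, and polyadenylated RNA was sequenced. HEK293T cells descend from human embryonic kidney and express a viral T antigen. The comparison takes 6 of the 32 libraries of the series. They are 3 libraries from cells held in DMSO for 6 h with DMSO added for the last 2 h, and 3 from cells held in DMSO for 6 h with 1.8 µM emetine dihydrochloride added for the last 2 h. DMSO is the solvent of both compounds and was used at 0.2% (v/v), so every cell of this comparison saw solvent and none saw STM2457, an inhibitor of the m6A writer METTL3 that the rest of the experiment used at 20 µM. Libraries were chosen by their labels alone, and all 15817 genes that passed a filter on low counts, of 60662 listed, were described.

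Many mRNAs are degraded while they are translated. Nonsense-mediated decay (NMD) reads a stop codon through a terminating ribosome, mRNAs with AU-rich elements or poor codons are tied to the ribosome in other ways, and a drug that freezes ribosomes can also halt the supply of short-lived proteins that hold transcription in check. Genes that rise within hours when protein synthesis stops have long been called superinduced, and the early response genes JUN and ATF3 are textbook cases. The heat shock and unfolded protein responses are programmes of chaperone genes that follow the load of misfolded protein.

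The 6 libraries held 24592643 to 28053353 gene counts. The first principal component took 93.4% of the variance in log expression and separated the groups. DMSO replicate 3 stood somewhat apart from the other two DMSO libraries, with a chi-square per degree of freedom of 6.59 and 7.34 against them, where DMSO replicates 1 and 2 gave 1.79. Without it 4823 genes were higher and 4676 lower, close to the counts with all libraries given next. Whether the replicates came from different cultures is not stated, so the p-values measure the spread between these libraries, which may be technical. All 10 markers of the embryonic kidney line were tested. Their summed level was 1380 to 1436 CPM (counts per 1000000) in DMSO and 1226 to 1256 CPM in emetine. Marker sums are per total gene counts without TMM scaling, and CPM of single genes given later are after TMM scaling. None of the 7 hepatocyte markers passed the filter, and the blood markers summed to at most 3.6 CPM in any library. Fibroblast markers, 5 of 8 tested, summed to 27.5 to 28.8 CPM in DMSO and 22.5 to 24.0 CPM in emetine. Keratin epithelium markers, 2 of 8 tested, summed to 20.2 to 22.7 and 22.4 to 23.1 CPM.

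With emetine 5360 genes were higher (33.9% of those tested) and 4477 were lower (28.3%), by edgeR's quasi-likelihood test with an adjusted p under 0.05, in all 9837 genes (62.2%). Changes of 2-fold or more were mostly upward, with 978 genes higher (6.18%) and 125 lower (0.79%). The libraries of the groups did not overlap for 10349 genes, 65.4% of those tested. These counts are relative to the bulk of mRNAs, because TMM scaling sets the typical gene near no change. The median over all genes was 0.04 on the log2 scale with TMM, 0.52 when libraries were scaled to the ERCC spike-in RNAs, and 0.47 when they were scaled to ribosomal protein mRNAs. Spike-in scaling moved genes upward by a median of 0.49 and called 11558 genes higher (73.1%) and 227 lower (1.44%). Ribosomal protein scaling called 11453 higher (72.4%) and 408 lower (2.58%), and total counts called 6799 higher (43.0%) and 3002 lower (19.0%). Exons of HSP90AA1, HSP90B1, SREBF1, MAT2A, EIF5A, EIF4A2, RPL27A, METTL3, ZBTB24, ZNF551, ANKZF1, TUBA1C and MIR600HG overlap those of other genes. All are named later, and their reads are uncertain.

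ERCC RNAs made up 0.529%, 0.559% and 0.592% of all counts in the DMSO libraries. They made up 0.432%, 0.47% and 0.40% in the emetine libraries, all below the lowest DMSO library. The means were 0.56% ± 0.0315 and 0.434% ± 0.035 (SD, n = 3), and the exact two-sided permutation test gave p = 0.1, the smallest that 3 against 3 allows. Set against ribosomal protein counts, the ERCC share was 8.27% ± 0.303 in DMSO and 8.01% ± 0.575 in emetine (SD, n = 3), and the groups overlapped (exact permutation p = 0.7). How the spike-ins were dosed is not given in the sources used here. Bulk libraries cannot tell less RNA per cell from fewer cells that carry it. Falls of less than about 0.49 on the log2 scale therefore change sign with spike-in scaling, and many slightly larger ones lose their call.

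**Figure D1:**
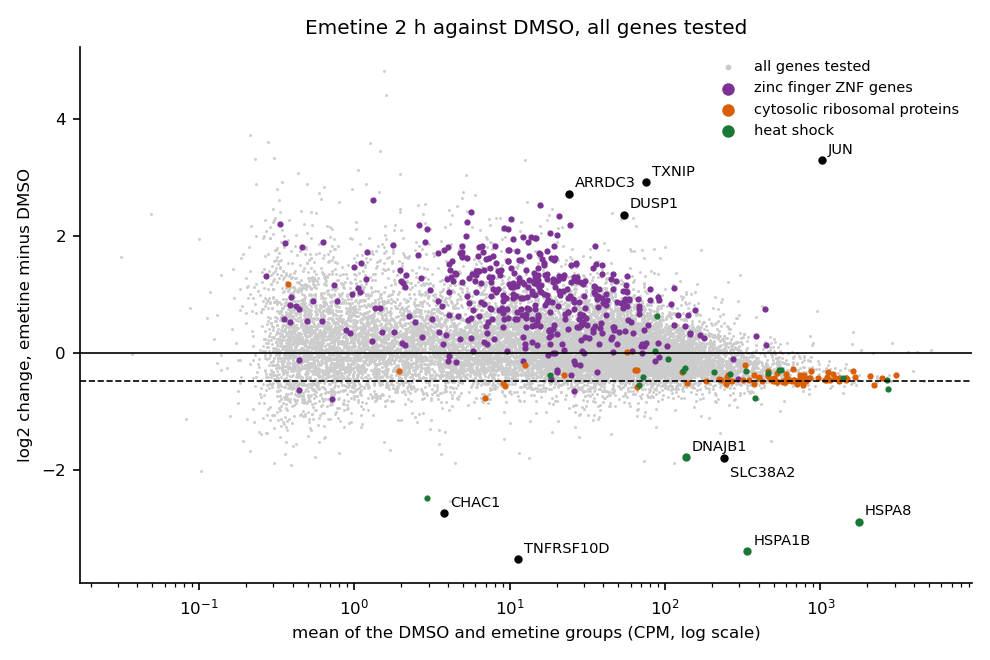
Log2 change with emetine against the mean level in CPM (log axis) for all 15817 genes tested. The solid line marks no change with TMM scaling and the dashed line no change with spike-in scaling. Most ZNF genes lie above the solid line, most ribosomal protein genes lie along the dashed line, and HSPA8, HSPA1B and DNAJB1 lie far below both.

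JUN, which encodes a subunit of the AP-1 transcription factor, had the largest rise among protein coding genes with a mean of at least 5 CPM in the higher group. Its level was 189, 192 and 184 CPM in the DMSO libraries and 1836, 1783 and 1918 CPM in the emetine libraries. Every emetine library stood far above every DMSO library. The fitted log2 change was 3.29 (SE 0.04), a 9.78-fold rise (edgeR adjusted p = 1.83e-33), and it was 3.78 with spike-in scaling. The gene lies on chromosome 1 from 58780788 to 58784327 on the minus strand (GRCh38).

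TXNIP, an alpha-arrestin that binds thioredoxin and limits glucose uptake, went from 17.9, 18.1 and 16.8 CPM to 133, 130 and 136 CPM. Its relative ARRDC3, an adaptor for receptor ubiquitination, went from 5.78, 6.43 and 6.92 CPM to 40.4, 42.6 and 42.4 CPM. Neither gene had overlapping groups, which was a condition for naming them, and the rises were 7.56-fold and 6.57-fold. TYW1B, a paralog of the tRNA wybutosine enzyme TYW1, rose from 2.33 ± 0.173 to 22.8 ± 0.331 CPM (SD, n = 3). MAP3K14, the kinase NIK of the non-canonical NF-kB pathway that is known as a very unstable protein, rose 6.51-fold to 43.9 ± 0.499 CPM. The pain receptor channel TRPV1, which shares exonic sequence with SHPK, rose 4.92-fold from 2.9 ± 0.521 CPM.

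Zinc finger genes filled much of the rest of the 14 largest rises. ZNF416 rose 5.77-fold, ZNF256 5.33-fold, ZNF16 5.02-fold and ZNF304 4.9-fold, and the SCAN domain gene ZSCAN12 rose 5.19-fold from 14.8 ± 0.435 to 76.7 ± 1.72 CPM. ZNF416 overlaps the exons of ZIK1, so its reads could belong to either. The phosphatases DUSP1 and DUSP8 and the histone gene H2AC6 complete the set and are described with their groups.

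**Figure D2:**
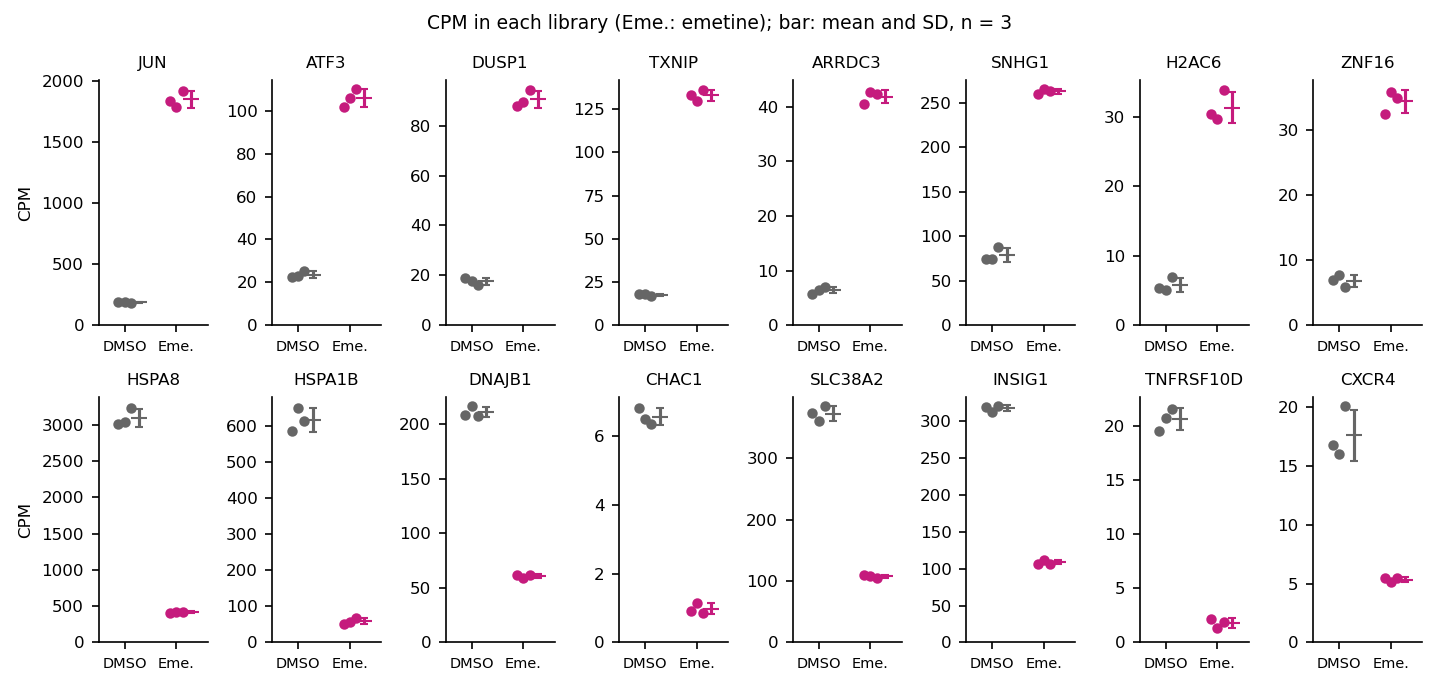
Level in CPM (linear axis from 0) of 16 genes in each DMSO and emetine library, with the mean and SD of 3 libraries beside the points. The top row holds genes that rose and the bottom row genes that fell. In none of the 16 do the groups overlap, which was a condition for naming most of them.

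The deepest falls among protein coding genes were in TNFRSF10D, a decoy receptor for the death ligand TRAIL, and in cytosolic chaperones. TNFRSF10D was at 19.6, 20.8 and 21.6 CPM in DMSO and at 2.17, 1.31 and 1.89 CPM in emetine. The groups were far apart, and the log2 change was -3.53 (SE 0.12), an 11.5-fold fall. NANOS1, an RNA-binding translational repressor, fell 5.83-fold to 1.2 ± 0.177 CPM (SD, n = 3). It overlaps exons of EIF3A.

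ZC3HAV1, the antiviral zinc finger protein ZAP that binds CpG-rich RNA, fell 3.59-fold from 114 ± 5.55 CPM. ZMAT3, a p53-induced RNA-binding protein, fell 3.51-fold to 5.89 ± 0.648 CPM. CXCR4, the chemokine receptor for CXCL12, was at 16.8, 16 and 20.1 CPM in DMSO and at 5.44, 5.13 and 5.45 CPM in emetine. These falls kept their sign with every scaling tried, and that of CXCR4 was -1.23 with spike-in scaling.

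Of 35 immediate early genes tested, 18 were higher and 5 lower, with a median of 0.26 against 0.04 for all genes. Over all genes tested 33.9% were higher and 28.3% lower, and the counts of each list below are to be read beside these shares. Immediate early genes are switched on by growth factors and stress without need for new protein. Behind JUN came ATF3, at 22.5, 23 and 25.3 CPM in DMSO and at 102, 106 and 110 CPM in emetine. JUND rose 3.07-fold, KLF10 2.9-fold, IER2 2.56-fold and KLF6 2.28-fold. The zinc finger factor EGR1 rose 3.33-fold from only 4.04 ± 0.431 CPM. FOS, the partner of JUN in AP-1, reached only 2.59 ± 0.187 CPM from 0.977 ± 0.131 CPM (SD, n = 3). Its log2 change was 1.40 (SE 0.21), against 3.29 for JUN.

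The promoter of JUN is shown because it holds an ATF and JUN site, the kind of element through which AP-1 factors act. Sequences are from RefSeq on GRCh38.p14, the 250 bases before the RefSeq gene start, 5′ to 3′ on the gene's strand. Capitals mark matches to the letters TGACNTCA on either strand. The JUN stretch lies at chr1:58784048-58784297 on the minus strand, within the gene bounds given above, which are from GENCODE. RefSeq and GENCODE starts can differ, and the HSPA8, DNAJB1 and CHAC1 stretches below also lie within GENCODE gene bounds.
JUN: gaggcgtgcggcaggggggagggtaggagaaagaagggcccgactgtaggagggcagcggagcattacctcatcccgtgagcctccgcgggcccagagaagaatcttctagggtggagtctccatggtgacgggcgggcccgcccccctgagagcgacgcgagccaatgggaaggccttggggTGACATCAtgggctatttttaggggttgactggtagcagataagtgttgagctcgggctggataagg
The match starts 67 bases before the RefSeq start. These letters occurred in 6.87% of the 35116 promoter entries searched. Of the 24 tested immediate early genes with a promoter in the table, 6 held them in at least 1 entry, namely ATF3, BTG2, JUN, JUND, KLF6 and MAFF. The share is per entry and the count per gene, so they cannot be compared directly. All 6 were called higher, as were 51.4% of the tested early genes and 33.9% of all genes. A link of the letters to the rise was not tested. The match says nothing of what binds there.

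Inhibitors of MAP kinases had 11 of 18 members higher and 3 lower. The largest rises were in phosphatases that switch off MAP kinases such as JNK. DUSP1 was at 18.8, 17.9 and 16 CPM in DMSO and 87.9, 89.4 and 94.4 CPM in emetine. DUSP8 rose 5.09-fold, DUSP10 4.53-fold and DUSP16 2.26-fold. No group overlapped in any of these phosphatases, which was a condition for naming DUSP1 and DUSP8.

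The alpha-arrestin and circadian list had 12 of 16 members higher and none lower, with a median of 0.31. Beyond TXNIP and ARRDC3 the rises were modest. ARRDC2 rose 1.62-fold, PER2, a repressor of the clock, 1.55-fold, ARRDC4 1.5-fold and the repressor CRY2 1.39-fold. Some transcription factors outside this list rose as well. KLF11 rose 2-fold, SOX4 1.94-fold and HOXA5 1.99-fold. MLXIPL, the glucose-sensing factor that drives TXNIP, rose 2.11-fold from 4.38 ± 0.587 CPM, while MYC fell by 0.30 on the log2 scale with TMM and was at 0.18 with spike-in scaling. The MYC and MAX network had 5 of 13 members higher and 5 lower.

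Of 36 HOX genes tested, 17 were higher and 3 lower. HOXA13 was at -0.50 with TMM and -0.01 with spike-in scaling.

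Known NMD substrates had 12 of 20 members higher and 5 lower, with a median of 0.26. NMD is a translation-coupled pathway that removes mRNAs with premature or special stop codons. GADD45A, a growth arrest gene whose mRNA is a well-known target, was at 12.6, 11.4 and 10.2 CPM in DMSO and 39.7, 37 and 40.8 CPM in emetine. Its paralog GADD45B rose 3.11-fold, PPP1R15A (GADD34) 2.45-fold and RSRC2 1.63-fold. ASNS, asparagine synthetase, went the other way and fell 2.23-fold, from 2.62 ± 0.31 CPM. ATF4, which carries upstream reading frames, rose 1.22-fold from 776 ± 3 CPM. Several of these genes also belong to the early or the stress lists, so the lists are not separate evidence.

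NMD factors themselves had 10 of 18 members higher and 5 lower. SMG9 rose 1.72-fold, UPF1 1.29-fold and SMG1 1.27-fold.

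Host genes of snoRNAs, whose spliced RNA is short-lived while the snoRNA is cut from the intron, had 14 of 26 members higher and 7 lower. SNHG1 was at 74.5, 73.9 and 87.5 CPM in DMSO and 260, 266 and 263 CPM in emetine. SNHG15 went from 42.4, 42.5 and 48.4 CPM to 157, 158 and 150 CPM. SNHG17 rose 3.43-fold, SNHG20 2.78-fold and TAF1D 2.21-fold. The last 2 overlap exons of other genes. GAS5, the host most often used as an NMD marker, rose only 1.12-fold. It missed the threshold with DESeq2 (adjusted p = 0.0618), without DMSO replicate 1 (edgeR adjusted p = 0.103) and without DMSO replicate 2 (edgeR adjusted p = 0.12).

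The snoRNA genes themselves moved the other way, with 12 of 21 lower, none higher and a median of -1.13, which was -0.65 with spike-in scaling. Counts at snoRNAs in a poly(A) library can come from host introns and are uncertain. SR splicing factors can switch off their own mRNA through poison exons. Their list, which also holds CLK kinases and SNRNP70, had 9 of 18 members higher and 5 lower. CLK1, CLK2, CLK3 and CLK4 were all among those higher. The kinases CLK2 and CLK4 rose 1.78-fold and 1.6-fold, and SRSF6 rose 1.68-fold.

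Unprocessed pseudogenes, gene copies with introns that often carry stop codons, had more members higher than lower. Of 214 transcribed unprocessed pseudogenes 132 were higher and 5 lower (61.7% higher, against 35.8% of protein coding genes), with a median of 0.62. The unprocessed class gave 27 higher and 4 lower of 55, and transcribed unitary pseudogenes gave 18 higher and 1 lower of 29. Processed pseudogenes, which are intronless copies, had 20 higher and 69 lower of 265, and their median of -0.34 was 0.15 with spike-in scaling.

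Among genes that are not protein coding, SLC7A5P1 rose 8.2-fold, SMPD4BP 7.27-fold, PDE4DIPP2 6.71-fold and SMG1P2 6.47-fold. SMPD4BP was at 8.64, 9.01 and 10.3 CPM in DMSO and 67.2, 66.9 and 68.4 CPM in emetine. All 4 are copies of coding genes, so their reads may be split between copy and parent. The parents did not move alike, since SLC7A5 fell 2.01-fold and SMG1 rose 1.27-fold. The largest falls outside coding genes were MIR600HG (3.69-fold), MIR4697HG (2.97-fold), LINC00641 (2.71-fold) and the ribosomal protein pseudogene RPS3AP26 (2.42-fold). RPS3AP26 was uneven, at 33.9, 29.6 and 47.2 CPM in DMSO and 18.9, 20.1 and 6.8 CPM in emetine. As a copy of a coding gene it may also share reads with its parent.

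The ZNF genes, mostly KRAB zinc finger repressors of transposable elements, had the highest median of the 48 lists. Of 417 tested 359 were higher (86.1%) and 12 lower, with a median of 0.92, a 1.9-fold rise. Together they took 0.88% ± 0.0195 of gene counts in DMSO and 1.47% ± 0.0265 in emetine (SD, n = 3), with no overlap (exact permutation p = 0.1, the smallest possible). ZNF134 was at 16, 15.1 and 15.5 CPM in DMSO and 55.3, 55.5 and 55 CPM in emetine. ZNF551 rose 4.57-fold and ZNF202 2.83-fold.

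Position on chromosome 19, which carries large clusters of KRAB genes, went with larger rises. There 165 of 181 ZNF genes were higher with a median of 1.19, against 194 of 236 with a median of 0.69 on other chromosomes. The 745 other coding genes of chromosome 19 had a median of -0.03. ZNF genes with a coding exon of 800 bases or more, which holds the finger array, had 316 of 352 higher and a median of 1.01. Those with shorter exons had 43 of 65 higher and a median of 0.29. Among ZBTB genes, which join zinc fingers to a BTB domain, 25 of 39 were higher and 7 lower. ZBTB48 rose 2.57-fold, ZBTB24 2.36-fold and ZBTB10 2.33-fold.

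Exon structure went with the change beyond this family. Protein coding genes were sorted into 5 equal bins by the longest coding exon of the transcript with the longest coding sequence. The median change climbed from -0.15 in the bin with the shortest such exon through -0.05, 0.01 and 0.13 to 0.24 in the bin with the longest. Without ZNF genes, a split added after seeing the data, it still climbed from -0.15 to 0.17. By coding length the medians ran from -0.17 to 0.14, and by exons per kilobase of coding sequence from 0.21 down to -0.11.

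Other features tracked the change little. The median was 0.03 in the bin of shortest 5′ UTRs and 0.02 in the longest, and -0.00 and -0.03 for 3′ UTRs. Genes with no AU-rich nonamer in the 3′ UTR had a median of 0.01, and those with 1 had 0.08. Expression level went with it as well, from 0.16 in the lowest bin of mean CPM to -0.17 in the highest, and these features are correlated with one another. Their separate parts were not tested.

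**Figure D3:**
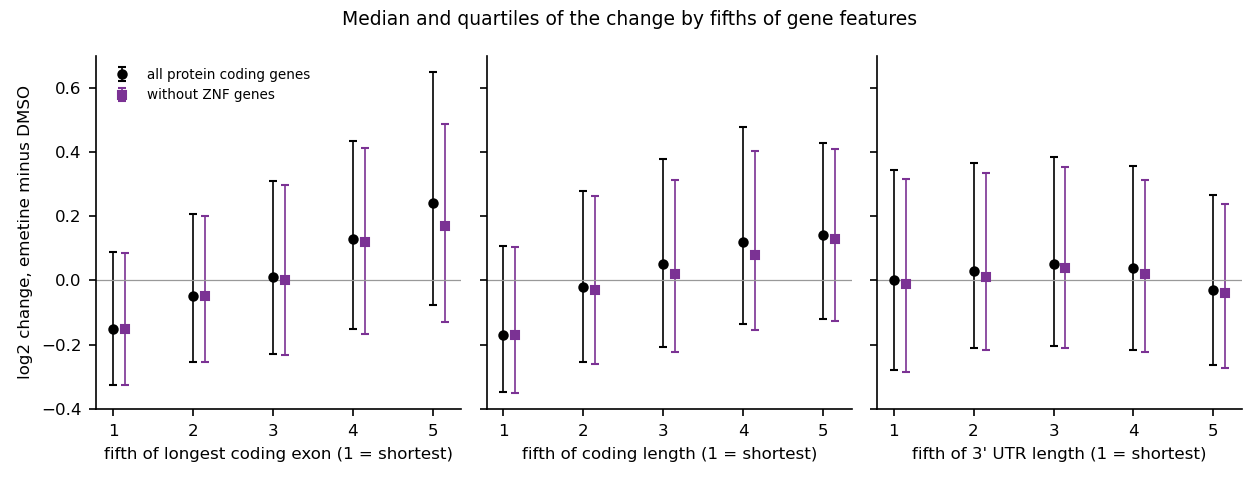
Median log2 change (points) and quartiles (bars) of protein coding genes by 5 equal bins of 3 features, with and without ZNF genes. The medians climb with the longest coding exon, from -0.15 to 0.24 for all genes, and with coding length, and stay near 0 across 3′ UTR length.

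Replication-dependent histone genes had 11 higher and none lower among 18 tested entries, which are 17 histone genes and SLBP, the protein that binds their 3′ end. The median was 0.88. These mRNAs normally end in a stem-loop without a poly(A) tail, so a poly(A) library counts mainly the polyadenylated forms. H2AC6 was at 5.35, 5.12 and 6.88 CPM in DMSO and 30.4, 29.7 and 33.9 CPM in emetine. H4C8 rose 5.73-fold from 0.768 ± 0.218 CPM, H2BC21 3.19-fold and H2BC5 2.56-fold. Replication genes of the G1/S list were mixed, with 11 of 25 higher and 8 lower. E2F2 rose 2.11-fold, the licensing factor CDT1 1.79-fold and ORC1 1.6-fold.

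Stem-loops of these histone mRNAs are shown because their annotated 3′ UTRs run on past the normal end. Each is given with 6 bases on either side, 5′ to 3′ from GENCODE release 29 transcripts on GRCh38. Capitals mark the stem-loop, searched on the sense strand as the letters GGCNCT for one arm, TTTN for the loop and AGNGCC for the other arm.
H2AC6: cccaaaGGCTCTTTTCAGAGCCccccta
H2BC21: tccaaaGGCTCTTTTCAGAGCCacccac
H4C8: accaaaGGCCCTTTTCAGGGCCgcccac
The H2AC6 stem-loop begins at base 44 after the stop codon (chromosome 6, plus strand), within an annotated 3′ UTR of 1173 bases. That of H2BC21 begins at base 57 of 1801 (chromosome 1, minus strand), and that of H4C8 at base 42 of 687 (chromosome 6, minus strand). Of the 13 tested entries with an annotated 3′ UTR, 7 held the stem-loop and 6 of these were higher. For the other 5 of the 11 higher genes no stem-loop was found. H2BC5, H2BC18 and H1-4 had an annotated 3′ UTR without it, which for H1-4 was only 57 bases long. H1-2 and H1-3 had no annotated 3′ UTR, so they could not be searched. Among all 18811 transcripts searched 0.154% held the stem-loop.

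Cytosolic chaperones of the heat shock response fell steeply. HSPA8, the constitutive HSC70 chaperone, was at 3013, 3044 and 3240 CPM in DMSO and 403, 425 and 423 CPM in emetine. HSPA1B, the stress-inducible HSP70, went from 586, 651 and 616 CPM to 50.6, 57.8 and 66.8 CPM, and DNAJB1, its HSP40 partner, from 209, 217 and 208 CPM to 61.7, 59.2 and 62.2 CPM. No groups overlapped, which was a condition for naming these genes, and the falls were 7.43-fold, 10.6-fold and 3.46-fold. The coding sequences of HSPA1A and HSPA1B are near identical, so their split is uncertain. HSPA1A fell 5.62-fold and the testis-enriched HSPA2 3.32-fold. DNAJB1 overlaps exons of TECR.

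Over the whole heat shock list 20 of 22 genes were lower and 1 higher, with a median of -0.37. With spike-in scaling only 5 were lower, 8 were higher and the median was 0.12, so the smaller falls turned with the scaling. DNAJA1 fell 1.72-fold and was at -0.30 with spike-in scaling. HSP90AA1 was at -0.62 with TMM and -0.13 with spike-in scaling, where it missed the threshold (edgeR adjusted p = 0.0898). HSF2, a transcription factor of the family that drives these genes, was the 1 gene that rose, by 1.53-fold.

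Promoters of the 3 chaperone genes given first are shown with matches to the 2-unit heat shock element, the kind of site at which HSF1 binds. Capitals mark the letters GAANNTTC, which read the same on both strands. HSPA8 lies at chr11:123062137-123062386 (minus strand), HSPA1B at chr6:31827488-31827737 (plus strand) and DNAJB1, from 1 of its 3 promoter entries, at chr19:14518398-14518647 (minus strand).
HSPA8: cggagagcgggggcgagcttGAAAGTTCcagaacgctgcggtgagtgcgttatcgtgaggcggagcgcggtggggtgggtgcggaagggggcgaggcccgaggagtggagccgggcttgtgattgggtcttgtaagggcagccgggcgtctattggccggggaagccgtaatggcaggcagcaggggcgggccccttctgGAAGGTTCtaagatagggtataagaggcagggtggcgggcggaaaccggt
HSPA1B: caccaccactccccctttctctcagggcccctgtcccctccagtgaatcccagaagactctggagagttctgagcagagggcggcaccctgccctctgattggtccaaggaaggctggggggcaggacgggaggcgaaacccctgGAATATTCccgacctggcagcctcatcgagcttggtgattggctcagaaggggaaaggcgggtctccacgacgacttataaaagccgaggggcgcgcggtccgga
DNAJB1: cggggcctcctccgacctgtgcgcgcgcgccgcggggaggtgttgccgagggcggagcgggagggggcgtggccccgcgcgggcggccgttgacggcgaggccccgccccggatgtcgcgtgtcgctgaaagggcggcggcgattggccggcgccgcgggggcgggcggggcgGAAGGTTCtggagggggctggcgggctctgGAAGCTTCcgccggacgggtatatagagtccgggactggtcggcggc
These letters were found in 5.78% of the 35116 promoter entries. A promoter was matched for 20 of the 22 heat shock genes, and 10 of them held the letters in at least 1 entry. The share is per entry and the count per gene, so they cannot be compared directly. All 10 were lower with TMM scaling, as were 90.9% of the whole list and 28.3% of all genes. The other 2 promoter entries of DNAJB1 held no match. The 3-unit form, which adds a further GAA at the fixed spacing, was found in 0.441% of all promoter entries. It was found in at least 1 entry of 5 of the 20 genes, HSPA8 among them but neither HSPA1B nor DNAJB1.

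The unfolded protein response, which senses misfolded protein in the endoplasmic reticulum, had 18 of 20 members lower and 1 higher, with a median of -0.36. With spike-in scaling 3 were lower and 9 higher and the median was 0.13. HERPUD1, a degradation factor of the endoplasmic reticulum, was at 65.3, 64.8 and 65.4 CPM in DMSO and 24.5, 23.8 and 25.5 CPM in emetine. Its fall of 1.40 on the log2 scale was -0.92 with spike-in scaling. The chaperones HSPA5 (BiP) and HSP90B1 were at -0.70 and -0.62 with TMM, and at -0.21 and -0.13 with spike-in scaling.

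Genes of the integrated stress response, which ATF4 switches on when initiation is slowed or amino acids run short, split in both directions. Of 32 tested 20 were lower and 8 higher, and with spike-in scaling 7 were lower and 16 higher. SLC38A2, an amino acid transporter, was at 373, 360 and 385 CPM in DMSO and 109, 108 and 105 CPM in emetine. CHAC1, which degrades glutathione and is among the strongest ATF4 targets, went from 6.83, 6.51 and 6.35 CPM to 0.913, 1.16 and 0.855 CPM, a 6.71-fold fall. SLC7A5, the large neutral amino acid transporter, fell 2.01-fold and the cystine transporter SLC7A11 1.7-fold.

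Their partner subunit SLC3A2 rose 1.53-fold, and DDIT3 (CHOP), which overlaps other genes, rose 2.65-fold. The promoter of CHAC1 is shown with the core of its amino acid response element, to which ATF4 dimers bind. It lies at chr15:40953221-40953470 on the plus strand, and capitals mark TTGCATCA, searched on both strands.
CHAC1: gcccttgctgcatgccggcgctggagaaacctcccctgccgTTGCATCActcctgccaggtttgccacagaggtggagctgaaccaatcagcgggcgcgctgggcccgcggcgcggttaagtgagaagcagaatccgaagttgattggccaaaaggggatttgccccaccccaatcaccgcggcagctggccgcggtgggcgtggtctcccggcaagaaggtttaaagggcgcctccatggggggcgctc
These letters occurred in 0.772% of all promoter entries. Counted per gene, 4 of the 27 matched stress genes held them in at least 1 entry, AARS1, CEBPG, CHAC1 and JDP2. Of these 2 were lower and 1 was higher, so holding the letters did not go with 1 direction.

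Cholesterol genes had 16 of 21 members lower and 2 higher, with a median of -0.34 that was 0.15 with spike-in scaling. INSIG1, the short-lived protein that holds SREBP in the endoplasmic reticulum, was at 319, 313 and 321 CPM in DMSO and 107, 112 and 107 CPM in emetine, a 2.93-fold fall. MSMO1 fell 2.02-fold, LSS 1.79-fold and SQLE 1.61-fold, all enzymes of the pathway. These 3 stayed negative with spike-in scaling, at -0.53, -0.35 and -0.20. SREBF1, which encodes a factor that drives the pathway, rose 1.56-fold. The methyl donor enzyme MAT2A fell 1.79-fold.

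**Figure D4:**
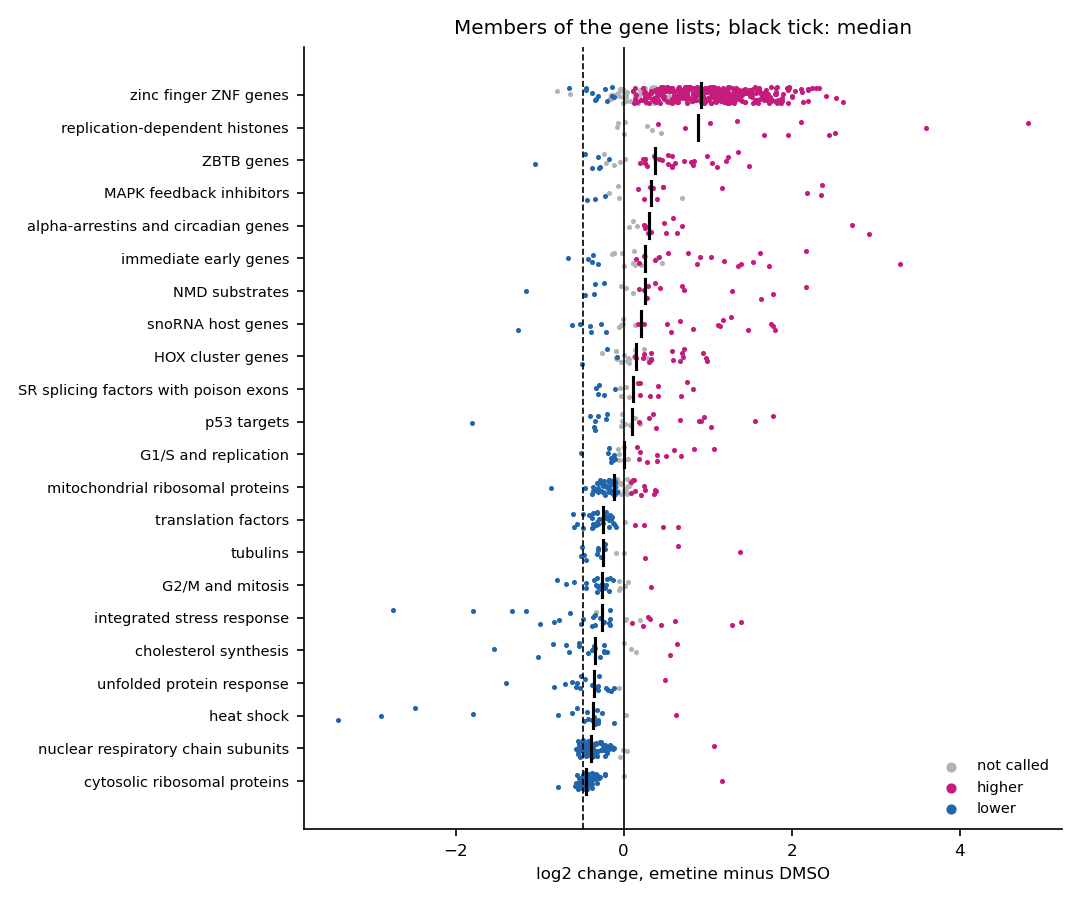
Log2 change with emetine of each tested member of 22 gene lists, coloured by the call at an adjusted p of 0.05, with black ticks at the medians. The solid line marks no change with TMM and the dashed line no change with spike-in scaling. ZNF and histone genes have the highest medians (0.92 and 0.88), and the medians of the lists at the bottom lie between the lines.

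The mRNAs of the translation apparatus moved as a narrow block. Of 86 cytosolic ribosomal protein genes 83 were lower and 1 higher with TMM, with a median of -0.45. With spike-in scaling 1 was lower, 11 were higher and the median was 0.04. RPL29 was at 678, 670 and 693 CPM in DMSO and 482, 486 and 462 CPM in emetine. RPL21 and RPL27A were at -0.53 and -0.55. As a share of gene counts the group went from 6.81% ± 0.246 to 5.44% ± 0.0586 (SD, n = 3), without overlap (exact permutation p = 0.1, the smallest possible).

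Translation factors had 31 of 37 lower and 4 higher with TMM, and none lower and 25 higher with spike-in scaling. The poly(A)-binding protein gene PABPC1 was at -0.60 with TMM and -0.11 with spike-in scaling. EEF1A1, the elongation factor that brings tRNA to the ribosome, was at 5303, 5288 and 5595 CPM in DMSO and 3799, 3906 and 3896 CPM in emetine. Its change was -0.48 with TMM and 0.01 with spike-in scaling. EIF5A was at -0.49 with TMM, and the helicase EIF4A2 rose 1.57-fold.

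Nuclear genes of the respiratory chain gave a similar picture, with 74 of 79 lower and 1 higher and a median of -0.39, and with none lower and 23 higher with spike-in scaling. COX7C and UQCRB were at -0.54 and -0.51. Mitochondrial ribosomal protein genes had 44 of 77 lower and 11 higher, a median of -0.11 that was 0.38 with spike-in scaling. Of the 13 mRNAs coded in mitochondrial DNA, which are translated by other ribosomes, 2 were lower and none higher.

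Some tubulin mRNAs are broken down on ribosomes when free tubulin is in excess. The tubulin list also holds TUBG1, TUBG2, TUBD1, TUBE1 and TTC5, which is not a tubulin. It had 11 of 16 lower and 3 higher (TUBG2, TUBE1 and TUBA8), with a median of -0.25 that was 0.23 with spike-in scaling. TUBA1C, TUBB and TUBA1B were at -0.51, -0.50 and -0.47, and at -0.03, -0.01 and 0.01 with spike-in scaling. Mitotic genes had 19 of 25 lower and 1 higher with TMM, and 2 lower and 17 higher with spike-in scaling. CENPF, a kinetochore protein, was at -0.79 and -0.30 on these scalings, the topoisomerase TOP2A at -0.59 and -0.10, and the cyclin CCNB1 at -0.45 and 0.04.

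The factors that sense and clear stalled ribosomes had 8 of 20 members higher and 5 lower. ANKZF1, which releases the stalled chain from tRNA, rose 1.88-fold from 17.3 ± 0.501 CPM. The ubiquitin ligases LTN1 and ZNF598 rose 1.47-fold and 1.26-fold. GCN1, a sensor of collided ribosomes, fell 1.47-fold from 272 ± 12.7 CPM with TMM, a change of -0.55 that missed the threshold with spike-in scaling (edgeR adjusted p = 0.399).

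Signalling targets were mixed. Of 26 p53 targets 11 were higher and 8 lower. The exonuclease AEN rose 2.06-fold and the phosphatase PPM1D 1.95-fold, while ZMAT3 fell as given above. BMP and TGF-beta targets had 8 of 14 higher and 4 lower. The inhibitors of differentiation ID3 and ID1 rose 2.47-fold and 2.31-fold and the repressor SKIL 1.9-fold, whereas its relative SKI fell 1.71-fold. The Notch targets HES1 and HEY1 rose 2.45-fold and 1.84-fold.

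Of 15 NF-kB genes tested 7 were higher and 2 lower. TNFAIP3 (A20) rose 1.75-fold and NFKBIZ fell 2.05-fold from 3.14 ± 0.238 CPM. NFKBIA, the inhibitor IκBα, was at -0.25 with TMM and at 0.23 with spike-in scaling. SOCS genes, brakes of cytokine receptors, gave 5 of 8 higher and 3 lower. SOCS2 rose 1.62-fold and SOCS7 fell 1.99-fold. STAT2 rose 2.23-fold from 13.7 ± 1.06 CPM. TIPARP, a target of the aryl hydrocarbon receptor that marks that receptor for degradation, rose 3.31-fold from 28.1 ± 1.21 CPM.

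The m6A pathway adds methyl groups to mRNA and directs some of the marked mRNAs to decay. Of 8 writer genes 6 were higher and 2 lower, and of 12 readers and erasers 6 were higher and 6 lower. METTL14 rose 1.71-fold, the adaptor CBLL1 1.6-fold and RBM15 1.39-fold, and ZC3H13 was at -0.50 with TMM and -0.01 with spike-in scaling. METTL3, the catalytic subunit, rose only 1.11-fold and missed the threshold without DMSO replicate 1 (edgeR adjusted p = 0.0771) or without DMSO replicate 2 (edgeR adjusted p = 0.113). The reader YTHDF2 was at 232, 238 and 223 CPM in DMSO and 322, 326 and 335 CPM in emetine, a 1.42-fold rise.

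General decay factors had more members higher than lower. Of 15 CCR4-NOT and PAN deadenylase genes 9 were higher and 4 lower, and CNOT4 rose 1.79-fold. Decapping genes gave 8 of 15 higher and 5 lower, and the exonuclease XRN1 rose 1.5-fold. BTG1, an adaptor that recruits the deadenylase, rose 1.72-fold from 40.4 ± 1.28 CPM.

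KLF and SP factors had 9 of 12 members higher and 1 lower, SOX factors 3 of 11 higher and 2 lower, and KLHL, KBTBD and KCTD genes 29 of 53 higher and 12 lower. Genes of hypoxia and glycolysis had 12 of 19 lower and 5 higher, with a median of -0.21 that was 0.27 with spike-in scaling. Methionine and polyamine genes gave 6 higher and 8 lower of 17, interferon and nucleic acid sensing genes 5 higher and 2 lower of 18, and protocadherins 3 higher and 6 lower of 15. Shares higher were 27.3% for SOX, 35.3% for methionine, 27.8% for interferon and 20.0% for protocadherin genes, against 33.9% of all genes.

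The AU-rich element decay genes around ZFP36 gave 4 higher and 3 lower of 9, and BTG and TOB adaptors 2 higher and 1 lower of 5. F-box and other ubiquitin regulators gave 5 higher (33.3%) and 6 lower of 15, and CREBBP, EP300 and large methyltransferases 6 higher and 3 lower of 12. Among long non-coding RNAs, LINC genes had 48 of 188 higher (25.5%) and 9 lower (4.79%). Antisense RNAs had 112 of 457 higher (24.5%) and 22 lower (4.81%), and divergent transcripts 48 of 226 higher (21.2%) and 6 lower (2.65%). These non-coding shares were all below those of all genes tested, 33.9% higher and 28.3% lower. Their medians of 0.16, 0.11 and 0.24 were above the 0.04 of all genes. Shares called also went with level. In the lowest of 5 bins of mean CPM, 26.3% of protein coding genes were higher and 8.16% lower. The part of level in the non-coding shares was not tested.

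The same 2 h of emetine was also given to cells held in STM2457, in 3 libraries that were set against 3 libraries with STM2457 and DMSO. These share no library with the comparison above. In them 4805 genes were higher (30.4%) and 4654 lower (29.4%). Of the 5360 genes higher without STM2457, 72.9% were called higher with it, and of the 4477 lower genes 78.3% were called lower. Of the 978 genes that rose at least 2-fold 86.2% were called higher again, and of the 125 that fell at least 2-fold 75 were called lower again. Across the 15817 genes the Pearson r of the changes was 0.79, which is over genes and not over independent samples.

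The difference between the emetine changes was called for 2810 genes (17.8%), 1062 of them more positive (6.71%) and 1748 more negative (11.1%) with STM2457. Spike-in scaling left 705. Of the 5360 higher genes the difference was called for 1545, and in 1198 of these the change was smaller with STM2457. These genes were selected by the change that the difference subtracts, so the count leans toward smaller changes by selection. ID3 was at 35.7, 35 and 35.4 CPM in DMSO and 87.1, 90.5 and 85.1 CPM in emetine. In STM2457 its mean was 159 ± 5.84 CPM without emetine and 138 ± 4.7 CPM with it (SD, n = 3). The emetine change went from 1.31 to -0.20, and the difference was -1.51 (SE 0.06, edgeR adjusted p = 1.83e-19).

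YTHDF2 showed the same order, at 766 ± 7.57 CPM with STM2457 and 586 ± 3.81 CPM with both (SD, n = 3). Its emetine change was 0.50 without STM2457 and -0.39 with it. HOXA5 went from 0.99 to 0.10 and SOX4 from 0.96 to 0.15. JUN rose in both settings, by 3.29 and 3.54 on the log2 scale. TNFRSF10D changed by -3.53 and -3.64, and that difference did not pass (edgeR adjusted p = 0.779).

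Among chaperones DNAJB1 had the clearest dependence on the setting, with a change of -1.79 without STM2457 and -0.85 with it. CHAC1, at 13.5 ± 1.42 CPM in STM2457 and 7.48 ± 0.455 CPM in STM2457 with emetine (SD, n = 3), went from -2.75 to -0.85.

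**Figure D5:**
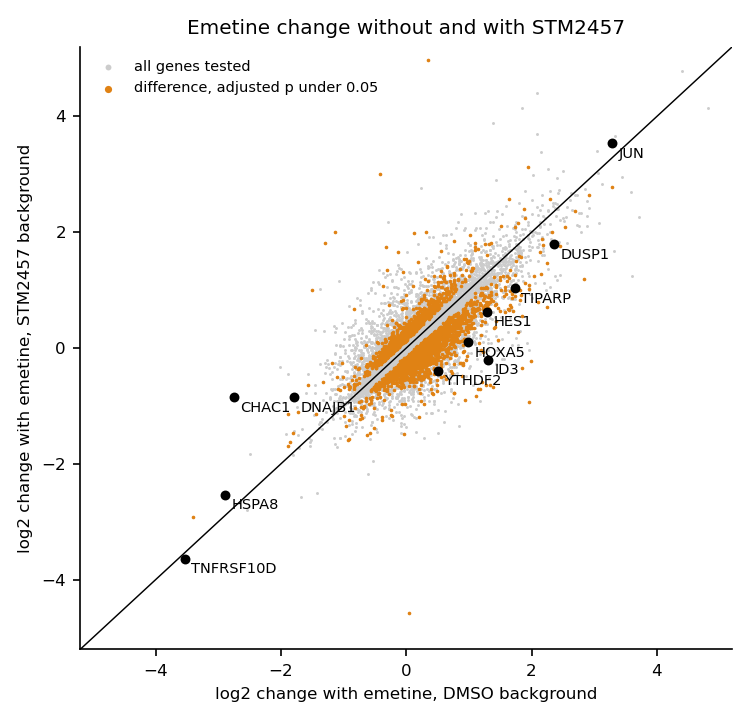
Log2 change with emetine in the STM2457 background against that in the DMSO background for all genes tested, with genes whose difference passed in orange and the line of equal change. JUN, HSPA8 and TNFRSF10D lie near the line, and ID3, YTHDF2, HOXA5, CHAC1 and DNAJB1 lie well off it.

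Changes with STM2457 alone, in experiments that share no library with this one, overlapped in part. After 6 h of STM2457 22.9% of all genes tested there were higher. The share was 24.1% of the 15583 genes tested in both experiments and 33.3% of the genes higher with emetine. After 9 h, where 32.2% of all genes tested were higher and 32.5% lower, 32.8% of the shared genes were higher and 41.9% of the genes higher with emetine. Of the genes lower with emetine 49.9% were lower after 9 h of STM2457, against 33.3% of the shared genes. After 6 h these shares were 23.0% and 23.1%. Among genes that rose at least 2-fold with emetine, 25.1% were higher after 6 h of STM2457 and 36.4% after 9 h. Among those that fell at least 2-fold, 12.5% were lower after 6 h and 21.1% after 9 h. More of them went the other way, with 20.8% higher after 6 h and 29.4% after 9 h. Of the genes that rose at least 2-fold, 18.1% were lower after 6 h and 14.6% after 9 h. Of all genes higher with emetine, 24.1% were lower after 6 h, against 23.1% of the shared genes. After 9 h these shares were 26.8% and 33.3%.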

How the data were processed

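The authors deposited unnormalized read counts for each gene. The submitters' processing notes name cutadapt 1.18 and 4.0, STAR 2.7.3a, Subread 2.0.0 with featureCounts, and the build GRCh38.p12. The kit was strand-specific with poly(A) selection, per the labels' protocols. For the counting, which annotation and which strand option applied is not given in the sources used here, and overlapping genes are therefore uncertain. Counts of 92 ERCC RNAs were kept apart. Counts of the 12 libraries of the emetine experiment were fitted together in edgeR 4.0.16 (R 4.3.3) with TMM, filterByExpr and quasi-likelihood F tests, Benjamini-Hochberg adjustment over all 15817 genes and a threshold of 0.05, giving 3 contrasts. The code was tested on simulated data. CPM are counts per 1000000 after TMM, except for the marker sums, which are per total gene counts without TMM. Gene types, positions and transcript features came from GENCODE release 29, which held 58587 of the 60662 IDs. Promoters came from RefSeq.

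Named genes are the 14 protein coding genes of each direction with the largest change among those called, not overlapping and at 5 CPM or more in the higher group, the 4 of each direction of other types, and members of each described list among its 6 smallest p or with a central role. A few genes that met this rule are not reported here. The members and the 48 lists were chosen with earlier results of these data known. The replicate numbers did not pair the libraries. Alternatives were DESeq2 1.42.0, 3 other scalings, no filter, only the 6 libraries, a replicate block and leaving out each replicate.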

Additional observations from a re-analysis of the deposited data

Results flagged for a closer look

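The emetine change differed between the DMSO and the STM2457 background for 2810 genes in all, by edgeR's test of the difference with an adjusted p under 0.05. Among the 142 genes named here it differed for 65, in 25 toward a more positive and in 40 toward a more negative change with STM2457. Each value below is the log2 change with emetine under STM2457 minus that without it. Many of these genes were named for their change without STM2457, which the difference subtracts, so smaller changes are favoured. No cause was tested.

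Rises were smaller with STM2457, or turned, for the developmental and signalling genes ID3 (-1.51), ID1 (-0.74), HOXA5 (-0.89), SOX4 (-0.81), HES1 (-0.66), HEY1 (-0.53), TIPARP (-0.70) and KLF11 (-0.22). The same held for the early genes and kinase inhibitors FOS (-1.07), ATF3 (-0.28), DUSP1 (-0.57) and DUSP16 (-0.40), for the kinase gene MAP3K14 (-0.34), for the histone genes H2BC21 (-0.96), H2AC6 (-0.67) and H2BC5 (-0.51) and for the zinc finger genes ZNF416 (-0.44), ZNF551 (-0.41), ZNF16 (-0.33), ZNF202 (-0.33), ZNF134 (-0.26), ZBTB24 (-0.55) and ZBTB10 (-0.30). Among m6A genes it held for YTHDF2 (-0.89), RBM15 (-0.37) and METTL14 (-0.29).

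Smaller rises were also found for the alpha-arrestins TXNIP (-0.26) and ARRDC4 (-0.34), the snoRNA hosts SNHG1 (-0.25), SNHG15 (-0.22) and GAS5 (-0.19), the p53 targets PPM1D (-0.34) and AEN (-0.21) and for TYW1B (-0.50), ANKZF1 (-0.37), ORC1 (-0.22), SLC3A2 (-0.20) and ATF4 (-0.14). Falls were larger for SLC7A5 (-0.18) and EEF1A1 (-0.14).

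Falls were smaller with STM2457, or gone, for the chaperones DNAJB1 (0.94), HSPA2 (0.64), HSPA1B (0.48), HSPA8 (0.37) and HSP90AA1 (0.16), for CHAC1 (1.89), the largest difference of any gene named, and for the cholesterol enzyme LSS (0.34). The same held for ZC3HAV1 (0.22), ZMAT3 (0.34), SOCS7 (0.32), GCN1 (0.26), NFKBIA (0.39), MAT2A (0.15), TOP2A (0.14) and CCNB1 (0.15), and for the RNAs MIR600HG (0.74), MIR4697HG (0.94) and LINC00641 (0.29). Rises were larger with STM2457 for JUN (0.25), ARRDC2 (0.56), GADD45A (0.38), PPP1R15A (0.31), SMG9 (0.31), CRY2 (0.28) and RSRC2 (0.19).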

How the results depend on the processing

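The counts depend most on the scaling. Scaled to spike-ins, 11558 genes were higher and 227 lower without STM2457, 11548 higher and 219 lower with it, and the difference was called for 705. Scaled to ribosomal protein mRNAs, 11453 were higher and 408 lower without STM2457, and 11559 higher and 365 lower with it. With total counts 2933 were lower under STM2457, in place of 4654. Against TMM, the log2 changes without STM2457 moved upward by a median of 0.49 with spike-ins and 0.44 with ribosomal protein mRNAs. Scaling multiplies each library by a constant of its own, so the spread between replicates can change as well. Their separate parts in the counts called were not tested. The cause of the smaller number of differences was not tested. DESeq2 and no filter kept these counts within 1.5 times, as did a fit of the 6 libraries for those without STM2457, the only ones it can give.

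Leaving out 1 replicate gave 4669 to 5090 genes higher and 4228 to 4676 lower without STM2457, and 4315 to 4566 higher and 4360 to 4727 lower with it. The difference was called for 2275 to 3142 genes. Replicate numbers did not pair the libraries, with same-numbered correlations of 0.0215, -0.0821 and -0.0828. With a replicate block 5358 genes were higher and 4480 lower without STM2457, 4789 higher and 4665 lower with it, and 2838 differed.

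Of the 142 named genes, those that changed sign were EEF1A1 (0.01), CCNB1 (0.04), TUBA1B (0.01), NFKBIA (0.23) and MYC (0.18) with spike-in scaling, and NFKBIA (0.18) and MYC (0.14) with ribosomal protein scaling. A further 15 and 11 of them missed the threshold with these scalings, and the replicate block changed no call of a named gene. The difference in spike-in share between groups was -0.126 percentage points of all counts, and -0.26 percentage points of ribosomal protein counts. The median of 14 of the 48 lists changed sign with spike-in scaling and of 13 with ribosomal protein scaling. Differences near 0.49 on the log2 scale and genes under about 1 CPM are where scaling and depth limit these results most.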
